A study of Mus musculus with 10 samples.

Results

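The loss of the paternal X chromosome was examined in the brain of newborn mice by comparing animals with a single, maternal X (XmO) with XX females of the same cross (XX_Paf). These are 6 of the series' 10 arrays, chosen by genotype and cross in the sample titles: XmO replicates 1, 2 and 7 and XX_Paf replicates 1, 2 and 3. Both groups were taken at postnatal day 0 from the cross written C57BL/6J x C3H/Paf, and RNA of the whole brain was hybridised to Affymetrix MG-U74Av2 arrays. Should the mother be the strain named first, on which the labels are silent, the X missing from XmO is the C3H/Paf one and the X that remains is from C57BL/6J. Paf is the symbol of patchy fur, an X-linked coat mutation of the mouse. The labels do not say which animals carry it, so that the loss of the paternal X and the loss of an allele on that X cannot be told apart. The other 4 arrays, XpO 15 and 18 and XX_InX 1 and 19, come from the cross written In(X)/C3H x C57BL/6J. They carry a paternal X alone or 2 X chromosomes, and they enter here through the estimate of the spread and where the crosses were compared. Nothing in the labels says whether an array holds 1 animal or a pool, so that the p-values measure only the spread between these samples.

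In female mammals 1 of the X chromosomes is silenced in each cell early in development. The silenced chromosome is coated by Xist, a long noncoding RNA transcribed from that same chromosome, so a cell with a single X makes none. Most X-linked genes are therefore read from 1 copy in XX and XO cells alike, while a small set escapes silencing and is read from both copies in XX females. In the mouse XO females are fertile and only mildly affected, and an imprinted X-linked gene can differ with the parent that gave the single X.

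Values are intensities on the authors' linear scale, in which every array has a trimmed mean of 500.3, and per-array values are given in the order XmO 1, 2, 7 and XX_Paf 1, 2, 3. Differences are log2 values, XmO minus XX_Paf, with the standard error (SE) from limma, and a probe set was called at a Benjamini-Hochberg adjusted p under 0.05 over the 8695 probe sets tested. Background was set on each array by the brightest of 9 probe sets for Y-linked genes, since no animal here carries a Y. It lay at 67.7 to 137 in XmO and 60.3 to 84.7 in XX_Paf. Arrays correlated at 0.964 to 0.968 within XmO, 0.971 to 0.973 within XX_Paf and 0.962 to 0.970 between the groups (Pearson's r, computed over probe sets, so with no p). The 3' to 5' signal ratio of the Gapdh control, a sign of RNA integrity, was 0.701 to 0.780 in XmO and 0.727 to 0.767 in XX_Paf. That of the Actb control leaned higher in XmO, at 1.141, 1.064 and 1.163 against 1.048, 1.022 and 1.072. The part of RNA integrity in the differences was not tested. Of 20 neuron markers, 18 were measured and all 18 were tested, and their summed intensity was 80750.2 to 87764 in XmO and 84149.7 to 87319 in XX_Paf. The labelled tissue thus has its defining markers.

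Of the 8695 probe sets, 2 were called (0.023%), both X-linked and both lower in XmO, and 0 were called higher. They were Xist and Hccs, the X-linked gene for holocytochrome c synthase, the mitochondrial enzyme that attaches heme to cytochrome c. The rest of the transcriptome differed little: the median absolute log2 difference was 0.147, the median SE was 0.19, and 237 probe sets (2.73%) were higher and 244 (2.81%) lower at an unadjusted p under 0.05. On 605 probe sets (6.96%) every XmO array was above every XX_Paf array, and on 606 (6.97%) every XmO array was below. These percentages are the background against which the counts in each gene group are read.

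Xist had intensities of 23.6, 21.3 and 30.7 on the XmO arrays and 4082, 3742 and 3300.1 on the XX_Paf arrays. All 3 XmO values lay under the background of their array, so the fall is given as a bound. Taking the background in place of the XmO values, Xist was at least 42.1-fold lower (36.9-fold without XmO 1; limma's adjusted p = 9.27e-10). The result matches the genotype in the label of each of the 6 arrays.

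Hccs was at 387, 385 and 351 in XmO and 1363, 1001 and 1237 in XX_Paf. The groups were far apart, with a mean of 374 ± 20.5 (SD, n = 3) against 1200.2 ± 184 (SD, n = 3), or 3.19-fold lower in XmO (log2 difference -1.67, SE 0.15, limma's adjusted p = 0.000387). The call was kept when any 1 of the 6 arrays was left out (-1.80 to -1.57). A dimmer Hccs probe set had 53.8, 104 and 45.3 in XmO and 169, 160.1 and 158 in XX_Paf (log2 difference -1.36, SE 0.37, adjusted p = 0.808 by limma). It did not pass, and 2 of its 3 XmO values lay under the background, yet the groups did not overlap there either.

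Because the results turn on these X-linked genes, the stretches around their start sites are shown: for the called genes Xist and Hccs, and for Eif2s3x, the brightest of the genes reported to escape silencing. Each runs from 250 bases before the start to 50 bases after it, 5′ to 3′ on the gene's strand (minus for all 3), taken from RefSeq's annotation of GRCm38.p6. CG dinucleotides, the sites of DNA methylation, are in capitals. The positions are chrX:103483184-103483483 for Xist, chrX:169320323-169320622 for Hccs and chrX:94212602-94212901 for Eif2s3x.
Xist: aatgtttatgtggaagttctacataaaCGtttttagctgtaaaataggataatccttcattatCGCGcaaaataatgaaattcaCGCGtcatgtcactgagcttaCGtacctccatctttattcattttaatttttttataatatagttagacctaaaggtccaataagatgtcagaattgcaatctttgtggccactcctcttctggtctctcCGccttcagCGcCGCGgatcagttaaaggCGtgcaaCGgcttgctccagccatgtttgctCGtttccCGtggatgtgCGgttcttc
Hccs: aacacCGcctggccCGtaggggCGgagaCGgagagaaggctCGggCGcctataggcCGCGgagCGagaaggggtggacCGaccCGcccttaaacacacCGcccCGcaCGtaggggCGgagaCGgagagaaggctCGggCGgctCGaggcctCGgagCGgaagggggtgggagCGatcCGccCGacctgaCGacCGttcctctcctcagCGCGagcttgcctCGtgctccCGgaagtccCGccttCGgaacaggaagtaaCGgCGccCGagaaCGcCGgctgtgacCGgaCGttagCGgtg
Eif2s3x: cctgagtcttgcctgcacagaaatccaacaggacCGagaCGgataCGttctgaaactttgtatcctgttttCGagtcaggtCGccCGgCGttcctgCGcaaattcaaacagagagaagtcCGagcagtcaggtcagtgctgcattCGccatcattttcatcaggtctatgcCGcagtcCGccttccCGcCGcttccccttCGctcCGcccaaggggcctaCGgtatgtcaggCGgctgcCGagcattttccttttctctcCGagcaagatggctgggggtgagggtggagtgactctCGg

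Xist held 15 CG dinucleotides in this window, Eif2s3x 21 and Hccs 40. Over the 32851 start sites in the same table the median was 7, and 96.1% of them had fewer than Hccs, 75.2% fewer than Eif2s3x and 65.4% fewer than Xist. The Hccs window also repeats a run of 33 bases exactly, from its bases 15 and 108. A repeat that long was found in 254 of the 32851 windows (0.773%). The arrays do not read methylation or binding, so these are descriptions of the sequence only, and of the reference strain.

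In the other cross the same Hccs probe set was at 415 and 441 on the XpO arrays and 316 and 391 on the XX_InX arrays. The 3 XX_Paf arrays, at 1001 to 1363, thus stood above all 7 others of the series, which lay between 316 and 441. Loss of an X went with a log2 difference of -1.67 in the Paf cross and 0.28 (SE 0.19) in the In(X) cross. The difference between the crosses was -1.95 (SE 0.24), and it was called over all 8695 probe sets (limma's adjusted p = 0.0219). It was 1 of 2 probe sets called there (0.023%), while 514 (5.91%) had an unadjusted p under 0.05. That call was lost without XmO 2 and without XmO 7, when 0 probe sets passed, while the value stayed between -2.08 and -1.86 in all 6 leave-outs.

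The genes that neighbour Hccs at the end of the X were examined for a wider region of lower signal. Of 32 named neighbours, Hccs included, 15 were measured and 8 tested. Besides Hccs, the groups did not overlap for Gpm6b, a membrane glycoprotein of neurons and oligodendrocytes, with 1079.6, 1237 and 1303 in XmO and 1973, 1674 and 1599 in XX_Paf (log2 difference -0.53, SE 0.20). They did not overlap either for Piga, which makes the first intermediate of the GPI anchor, with 95.3, 96.4 and 83.8 against 118, 149.8 and 119 (log2 difference -0.48, SE 0.28), where 1 XmO value was under the background. Neither passed (adjusted p = 0.877 and 0.887 by limma). With Hccs, 3 of 8 were lower without overlap (37.5%, background 6.97%) and 0 higher. Hccs itself prompted the look, so only the other tested neighbours bear on a wider region. Among those, Gpm6b and Piga were lower without overlap. The remaining 5 overlapped. Tmsb4x, thymosin beta 4, the actin monomer binder and brightest of them, was at 11709, 11354 and 10649.9 in XmO and 11588, 11955 and 11507 in XX_Paf (log2 difference -0.06, SE 0.09). The differences were 0.08 for the endosomal GTPase Rab9, 0.01 for the histone-binding Rbbp7, 0.02 for the CTP synthase Ctps2 and -0.06 for Txlng, with adjusted p from 0.932 to 0.996. The other 7 measured neighbours (Amelx, Tlr7, Prps2, Bmx, Grpr, Ap1s2 and Mid1) were too dim to be tested, and every value of theirs except Amelx on XmO 1 was under the background.

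**Figure D1:**
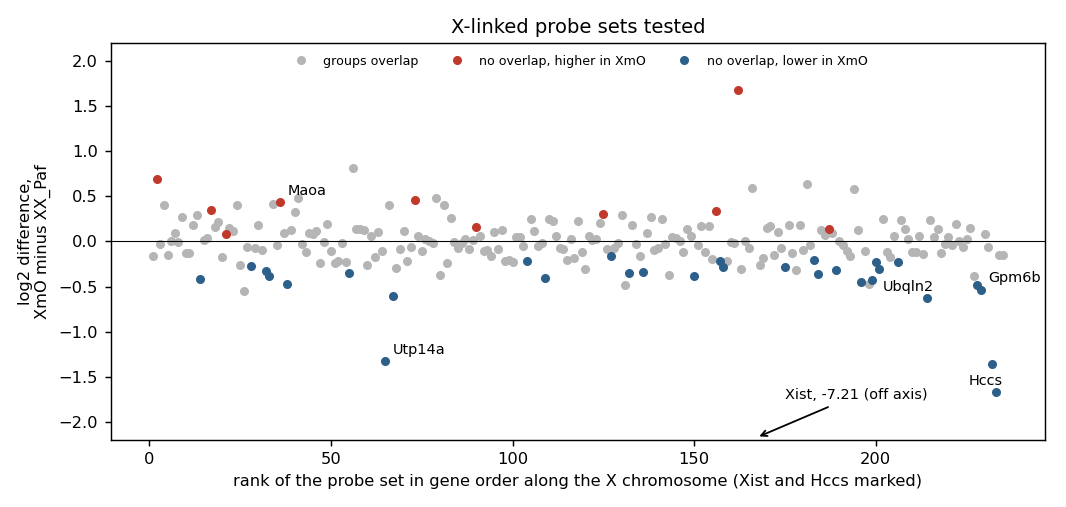
The log2 difference, XmO minus XX_Paf, of the 235 X-linked probe sets tested (vertical axis) in gene order along the X chromosome (horizontal axis, rank). Points are single probe sets, coloured where every XmO array lies below (blue, 31) or above (red, 10) every XX_Paf array. Hccs stands lowest among the points drawn, at -1.67, and Xist (-7.21) lies off the axis.

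Genes reported to escape X inactivation in the mouse had lower estimates in XmO. Of 12 named, 8 were measured and 6 tested. All 6 had lower estimates, 4 did not overlap (background 6.97%), and their median log2 difference was -0.36. Over all probe sets tested 50.5% of estimates were higher and 49.5% lower, with a median of 0.0021. None of the 6 was called. The median was -0.40 to -0.32 when 1 array was left out, and -0.28 when the probe sets of a gene were averaged in place of taking the brightest. Earlier results on these samples already showed this list as lower, so it is no independent evidence of direction.

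Eif2s3x encodes the gamma subunit of the initiation factor that brings the initiator tRNA to the ribosome. Its values were 4738, 4336 and 4617 in XmO and 5588, 6069 and 5652 in XX_Paf, a tight and separate pair of groups (log2 difference -0.34, SE 0.09, adjusted p = 0.744 by limma). Kdm6a, a histone H3 demethylase, was at 505, 441 and 431 against 670.0, 688 and 555 (log2 difference -0.47, SE 0.15), also without overlap. Ddx3x, an RNA helicase, was at 1456, 1987 and 1635 against 2521, 2075 and 1989.6 on its brighter probe set (log2 difference -0.38, SE 0.14), where the highest XmO array lay just under the lowest XX_Paf array. Its dimmer probe set went the other way, with 561, 662 and 428 against 407, 449.8 and 363 (log2 difference 0.42, SE 0.19), and the groups overlapped. Utp14a, a ribosome biogenesis factor, had the widest gap of the list, 52.3, 73.6 and 99.9 against 169, 235 and 154 (log2 difference -1.33, SE 0.42), but 2 of its 3 XmO values were under the background.

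The other tested members differed less. Usp9x, a deubiquitinase, was at 2497, 2773 and 2452 in XmO and 2901, 2789.6 and 2573 in XX_Paf (log2 difference -0.10, SE 0.10), and the groups overlapped. On its dimmer probe set, 329.7, 331 and 388 against 451, 425 and 439, they did not (log2 difference -0.33, SE 0.17). Biglycan (Bgn), a matrix proteoglycan, was at 808, 844 and 839.7 against 826, 934 and 1185 (log2 difference -0.22, SE 0.14), also with overlap. Mid1, a ubiquitin ligase gene at the boundary of the pseudoautosomal region, and Pbdc1 were under the background on all 6 arrays and were not tested.

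**Figure D2:**
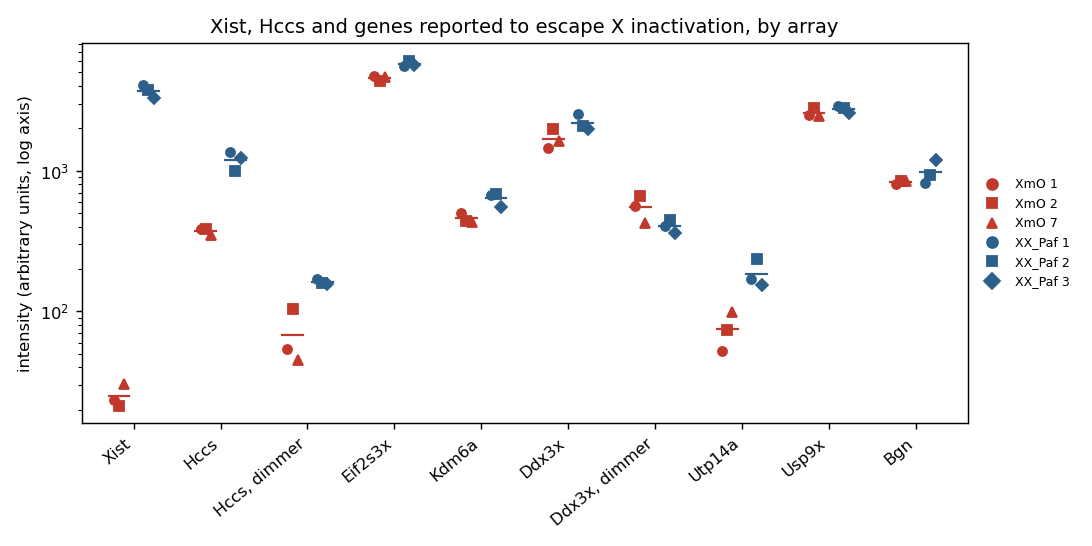
Intensity (vertical axis, arbitrary units, log axis) of Xist, Hccs and the escape genes on each array, with XmO in red, XX_Paf in blue, 1 symbol per replicate and the group mean as a line. Xist and both Hccs probe sets separate the groups, and Eif2s3x, Kdm6a and Utp14a do so by smaller steps, while Usp9x and Bgn overlap.

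Over the X as a whole the difference was small. The median over 235 X-linked probe sets was -0.026 and over 7573 autosomal ones -0.0007, a difference of -0.025 (-0.046 to -0.0039 when 1 array was left out). The X median itself was 0.0017 without XmO 2. Single autosomes ranged from -0.061 (chromosome 12) to 0.039 (chromosome 17), and 5 of 19 had a lower median than the X. More X-linked probe sets stood apart on the low side than the high side: 31 of 235 (13.2%, background 6.97%) were lower in XmO without overlap, and 10 (4.26%, background 6.96%) were higher. The lower ones counted 2 probe sets each of Hccs and of Nono, a nuclear RNA-binding protein.

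Beyond the genes given above, the lower X-linked probe sets included Ubqln2, a proteasome shuttle factor, at 657, 944 and 623 in XmO and 1205, 1183 and 995 in XX_Paf (log2 difference -0.62, SE 0.17). Aifm1, the mitochondrial flavoprotein known for its part in cell death, was at 856, 551 and 670.0 against 1185, 982 and 951 (log2 difference -0.60, SE 0.21). Dlg3, a scaffold of the postsynaptic density, was at 353, 319 and 389 against 434, 484 and 463 (log2 difference -0.38, SE 0.16). Col4a5, a basement membrane collagen, was at 136, 142 and 124 against 192, 193 and 158 (log2 difference -0.43, SE 0.22), and Idh3g, a subunit of the citric acid cycle's isocitrate dehydrogenase, at 1295, 1260.0 and 1329.8 against 1628, 1460.3 and 1441 (log2 difference -0.22, SE 0.11). All 5 missed the threshold, with limma's adjusted p of 0.744 to 0.887. Among the 10 higher ones, Maoa, which breaks down serotonin and noradrenaline, was at 1016, 974 and 968 in XmO and 783, 712 and 692 in XX_Paf (log2 difference 0.44, SE 0.11, adjusted p = 0.705 by limma). Its 3 XmO arrays lay close together and above every XX_Paf array. The small ribosomal subunit gene Rps4x had, on a dim probe set, the largest difference upward, 192, 221 and 190.2 against 78.3, 33.4 and 92.8 (log2 difference 1.68, SE 0.38, 1 XX_Paf value under the background), while the bright one, 14039, 14634 and 12908 against 15379, 13375 and 13246, did not differ in that way (log2 difference -0.01, SE 0.10). Genes linked to X-linked intellectual disability were 11 higher and 19 lower of 30 tested, with a median of -0.051 (-0.013 without XmO 2). Without overlap 4 were lower (13.3%, background 6.97%) and 1 higher (3.33%, background 6.96%).

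Outside the X no probe set passed, and the autosomal genes that follow are those with the smallest p among genes with separate groups. Higher in XmO was Tef, a transcription factor of the PAR bZIP family whose level follows the circadian clock, at 883, 751 and 649 in XmO and 448, 184 and 318 in XX_Paf (log2 difference 1.35, SE 0.27, adjusted p = 0.33 by limma). Spag7 was at 655, 462 and 654 against 297, 363 and 282 (log2 difference 0.90, SE 0.18), and Tff1, a secreted trefoil peptide, at 1284, 1541 and 1911 against 805, 707 and 685 (log2 difference 1.09, SE 0.24). In each of them the lowest XmO array was above the highest XX_Paf array. Mapk8ip1, a scaffold of the JNK kinase pathway, was at 2352, 2199 and 2151 against 1216, 1206 and 1885 (log2 difference 0.67, SE 0.16). Its dimmer probe set went the other way, at -0.54 (SE 0.23). Pafah1b2, a catalytic subunit of a platelet-activating factor acetylhydrolase, was at 2102, 2931 and 2619.6 against 1489, 1554 and 1577 (log2 difference 0.72, SE 0.17), with 0.16 and 0.10 on its other probe sets.

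Ufd1, a cofactor of the segregase that draws ubiquitinated proteins from membranes, was at 599, 340.4 and 765 in XmO and 267, 246 and 305 in XX_Paf (log2 difference 0.99, SE 0.25). Akirin1, a nuclear factor, was at 556, 589 and 562 against 315, 406 and 452 (log2 difference 0.56, SE 0.15). Of the dim ones, the receptor-type phosphatase gene Ptprv was at 99.4, 159 and 195 against 20.9, 42.1 and 53.6, and all XX_Paf values were under the background, which gives at least 1.95-fold higher (1.68 without XmO 7). Rasal3, a Ras GTPase-activating protein, was at 91.5, 122 and 144 against 43.7, 37.9 and 38.3, at least 1.57-fold higher by the same rule (1.41 without XX_Paf 1). A dim probe set of the repressor gene Zhx1 had log2 difference 1.70, SE 0.43, with 2 XX_Paf values under the background, while the bright one had -0.09. Adjusted p-values over these named higher genes ran from 0.33 to 0.824 (limma).

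Lower in XmO, after Xist and Hccs, were Pold2, the accessory subunit of DNA polymerase delta, at 166, 361 and 170.1 in XmO and 527, 552 and 572 in XX_Paf (log2 difference -1.34, SE 0.27, adjusted p = 0.33 by limma), and Aebp1, a secreted collagen-binding protein, at 21.4 to 44.1 in XmO and 183, 132 and 123 in XX_Paf. All XmO values of Aebp1 lay under the background, so it was at least 1.63-fold lower (1.43 without XmO 1). Hspg2, the basement membrane proteoglycan perlecan, was at 134, 134 and 129 against 221, 411 and 246 (log2 difference -1.09, SE 0.26), and Anpep, the membrane aminopeptidase N, at 79.2, 45.7 and 44.8 against 119, 184 and 159 (log2 difference -1.48, SE 0.32). For Anpep 2 of the 3 XmO values were under the background, so the size of its difference is not a measured one. For several others the groups were apart on a dim probe set only. Those of the gap junction gene Gja1 (-0.95), the triglyceride synthesis gene Dgat1 (-1.08), Wdr48 (-0.77) and 4931406C07Rik (-2.03) were set against -0.10, -0.12, -0.05 and -0.13 on the brightest probe set of the same gene. Under the background were 2 XmO values of 4931406C07Rik and 1 of Dgat1. The lists of plasma protein genes, to which the named Alb and Serpina1b belong, follow with the liver markers. When XmO 2 was left out 4 probe sets were called, with Ufd1 and Pold2 added, and when XX_Paf 3 was left out 3 were, with Mapk8ip1 added.

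The transcriptome was then described by function, each gene by its brightest probe set. Over all 6458 genes so taken, 3224 were higher and 3234 lower in estimate, 456 and 448 did not overlap, and the median was -0.0003. In bulk RNA fewer cells of a type and less RNA per cell cannot be told apart. Counts and medians of the lists are given beside these, without a test, and only Xist and Hccs were called in any list. Of the 50 lists with 5 or more members tested, 23 had a median whose sign changed when 1 array was left out.

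**Figure D3:**
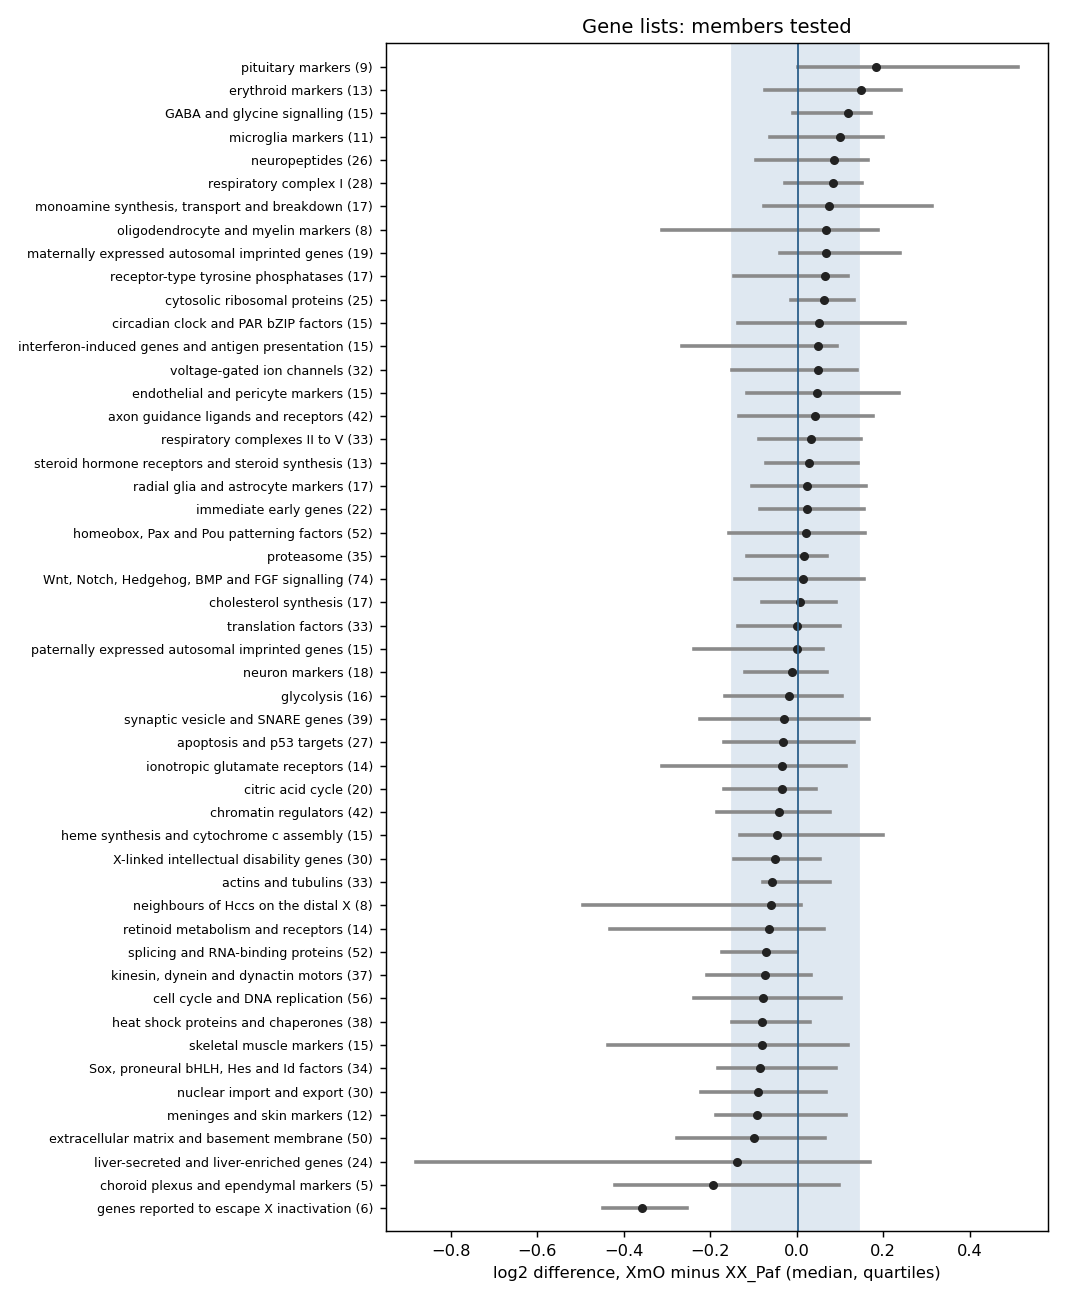
Median (point) and quartiles (bar) of the log2 difference, XmO minus XX_Paf (horizontal axis), over the members tested of each gene list with 5 or more of them, whose number is in brackets. The blue line and band are the median and quartiles of all tested probe sets. The escape list (-0.36) lies lowest and outside the band, and most other medians lie inside the band.

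Among the neuronal lists the monoamine genes had the largest share of members apart. Of 17 tested, 10 were higher and 7 lower, 6 were higher without overlap (background 6.96%) and 0 lower, with a median of 0.075 (0.068 to 0.16 when 1 array was left out). Along the pathway, the synthetic enzyme gene Ddc, whose product makes dopamine and serotonin, was at 339.5, 306 and 214 in XmO and 170.1, 196 and 189.6 in XX_Paf (log2 difference 0.61, SE 0.23), and Pnmt, which makes adrenaline, at 391.8 to 451 against 317, 347 and 370.2 (log2 difference 0.30, SE 0.17). Of the receptors, Drd4 was at 299, 331 and 400.4 against 201, 221 and 275 (log2 difference 0.57, SE 0.21) and the serotonin receptor Htr1b at 197, 227 and 235 against 146, 89.4 and 177 (log2 difference 0.73, SE 0.28). In those 4 genes and Maoa every XmO array was above every XX_Paf array, most widely for Maoa relative to the spread. The dopamine transporter Slc6a3 was at 79.4, 86.0 and 86.3 against 67.8, 64.6 and 79.2 and mostly near the background. Tyrosine hydroxylase (Th), the rate-limiting enzyme of dopamine synthesis, overlapped, at 309, 204 and 216 against 293, 265 and 278 (log2 difference -0.22, SE 0.31), as did the serotonin transporter Slc6a4, at -0.18, whose dimmer probe set was higher (0.67, SE 0.27). None passed, with adjusted p of 0.705 or more by limma.

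GABA and glycine genes were 11 higher and 4 lower of 15, with a median of 0.12 (0.032 to 0.15 when 1 array was left out). Gad2, a GABA-synthesising enzyme, was at 205, 138 and 153 in XmO and 103, 86.5 and 104 in XX_Paf (log2 difference 0.74, SE 0.30) and did not overlap. Ionotropic glutamate receptors and their scaffolds were 7 higher and 7 lower of 14, but the 4 without overlap (28.6%, background 6.97%) were all lower. They included Dlg4, the scaffold PSD-95, at 1021, 1012 and 922 against 1092, 1563 and 1526 (log2 difference -0.48, SE 0.17), and its X-linked relative Dlg3, given above. Homer1 (-0.91, SE 0.53), also among them, is a scaffold too and not a receptor subunit. The receptor subunit with the smallest p, Gria1, was higher in estimate (0.16, SE 0.11) and overlapped. Synaptic vesicle and SNARE genes were balanced, 19 higher and 20 lower of 39, with Syt3 at 837, 715 and 864 against 476, 694 and 509.7 (log2 difference 0.54, SE 0.17) and Syt4 at 496, 523 and 589.7 against 776, 682 and 689 (log2 difference -0.42, SE 0.17) on opposite sides, both being synaptotagmins, the calcium-binding family of vesicle proteins. Voltage-gated channels were 17 higher and 15 lower of 32, and neuropeptides 15 and 11 of 26. Among motors 12 were higher and 25 lower of 37, with a median of -0.073, but 17 higher and 20 lower without XmO 2 (median -0.0086) and a median of -0.028 without XX_Paf 1. The axonal kinesin Kif1a was at 1272, 911 and 876 against 852, 862 and 766 (log2 difference 0.28, SE 0.15) and the dynein chain Dync1i2 at 943, 1055 and 996 against 1242, 1296 and 1362 (log2 difference -0.38, SE 0.14).

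Clock genes had 8 higher and 7 lower of 15, with a median of 0.052 (0.030 without XmO 7). Without overlap 1 was lower (6.67%, background 6.97%) and 5 were higher (33.3%, background 6.96%). Besides Tef, these were Nr1d1, the repressor REV-ERB alpha, at 214, 327 and 279.6 in XmO and 206, 214 and 167 in XX_Paf (log2 difference 0.47, SE 0.24), Clock (0.29), Cry2 (0.21) and Nfil3 (0.30). The lower one was Bhlhe40 (-0.46), a repressor of the clock, with 1 XmO value under the background. The hour at which the animals were taken was not used here.

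Hccs acts on the respiratory chain's cytochrome c, and the genes of that chain were read with it. Respiratory complex I, which passes electrons from NADH, was 19 higher and 9 lower of 28, with 6 higher and 1 lower without overlap (background 6.96% and 6.97%) and a median of 0.085 (0.039 to 0.14 in the leave-outs). The steps were small, as for Ndufv1, the NADH-binding subunit, at 5343, 6179 and 5889 in XmO and 5114, 5042 and 5075 in XX_Paf (log2 difference 0.19, SE 0.12), and Ndufa7, at 4739.7, 5648 and 4558 against 4512, 4059 and 4166 (log2 difference 0.23, SE 0.10). Ndufb3 went the other way, at 882, 1077 and 1073 against 1389, 1122 and 1144 (log2 difference -0.27, SE 0.13). Complexes II to V were 20 higher and 13 lower of 33, with a median of 0.033 (-0.018 without XX_Paf 3). Of 15 heme and cytochrome c genes tested, Hccs among them, 7 were higher and 8 lower, with a median of -0.046 that was above 0 (0.0022 to 0.068) in every leave-out. Its substrate, the somatic cytochrome c gene Cycs, had log2 difference -0.19, SE 0.23. Glycolysis had 8 higher and 8 lower estimates, the citric acid cycle 8 and 12, and cholesterol synthesis 9 and 8.

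Several lists of nuclear genes had more lower than higher estimates. Splicing and RNA-binding proteins were 13 higher and 39 lower of 52, with a median of -0.072 (-0.10 to -0.053 in the leave-outs), against 49.9% higher and 50.1% lower over all genes. Of the 52, 7 were lower without overlap (13.5%, background 6.97%), among them Hnrnpc, at 234, 280.0 and 161 in XmO and 345, 360.0 and 328 in XX_Paf (log2 difference -0.65, SE 0.23), and Rbm25, at 232, 319 and 211 against 416, 341 and 359 (log2 difference -0.57, SE 0.19). The 1 higher was Rbm6, at 231, 185 and 195 against 153, 129.7 and 124 (log2 difference 0.58, SE 0.24). Nuclear import and export genes were 11 higher and 19 lower of 30, with a median of -0.091 (-0.019 without XX_Paf 1). The export receptor of importin alpha, Cse1l, was at 542, 638 and 508 against 854, 787 and 772 (log2 difference -0.52, SE 0.18), and Xpo1, the main protein exporter, at 1078, 1142 and 1044 against 1388, 1242 and 1352 (log2 difference -0.29, SE 0.11). Both groups were separate there.

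Chromatin regulators were 18 higher and 24 lower of 42, with 7 lower (16.7%, background 6.97%) and 2 higher (4.76%, background 6.96%) without overlap. Besides Kdm6a, the lower ones included the heterochromatin protein gene Cbx1, at 329.8, 664 and 372 in XmO and 676, 975 and 669.6 in XX_Paf (log2 difference -0.81, SE 0.25), and the acetyltransferase gene Kat2a, at 428, 427 and 307 against 600.0, 662 and 511 (log2 difference -0.62, SE 0.24). Cell cycle and replication genes were 21 higher and 35 lower of 56, with a median of -0.078 (-0.14 to -0.048). Without overlap 6 were lower (10.7%, background 6.97%) and 1 higher (1.79%, background 6.96%). After Pold2, the mitotic kinase gene Aurkb was at 243, 127 and 62.9 in XX_Paf and at 47.1 or just over it on the XmO arrays. All its XmO values and that of XX_Paf 3 were under the background, so its place among the 6 is uncertain. The bound was 1.42-fold lower, and 1.02 without XX_Paf 1, and it includes that XX_Paf 3 value. The histone variant gene H2az1 was at 1977, 2124 and 1767 against 3043, 2560.3 and 2125 (log2 difference -0.39, SE 0.18). The centromeric histone Cenpa was the higher one, at 299.7, 313 and 353 against 157, 246 and 249 (log2 difference 0.60, SE 0.25). Chaperones were 11 higher and 27 lower of 38, with a median of -0.081, among them the ER disulfide isomerase Pdia3, at 873, 936 and 1064 against 1513, 1168 and 1220.2 (log2 difference -0.44, SE 0.17). Its counterpart in direction was the cochaperone Dnajb1, at 487, 418 and 592 against 324, 412 and 296 (log2 difference 0.54, SE 0.19). In the protein synthesis lists, 18 of 25 cytosolic ribosomal proteins had higher estimates, with a median of 0.063 (0.038 without XX_Paf 3), translation factors were 17 higher and 16 lower of 33, and proteasome subunits 18 higher and 17 lower of 35.

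Extracellular matrix and basement membrane genes were 19 higher and 31 lower of 50. Without overlap 8 were lower (16.0%, background 6.97%) and 0 higher, with a median of -0.098. Besides Aebp1, Hspg2 and Col4a5, these were the laminin chain Lamb2, at 113, 99.2 and 100.1 in XmO and 121, 193 and 183 in XX_Paf (log2 difference -0.64, SE 0.26), nidogen 2 (Nid2), at 156, 146 and 140.0 against 220.0, 186 and 169 (log2 difference -0.37, SE 0.25), and vitronectin (Vtn), at 419.8, 431 and 407 against 611, 521 and 501 (log2 difference -0.37, SE 0.14). The proteoglycans decorin (Dcn), at 769.8, 826 and 752 against 919.5, 1017 and 937 (log2 difference -0.29, SE 0.13), and versican (Vcan), at 979.8, 1072 and 849.6 against 1303, 1098 and 1082 (log2 difference -0.26, SE 0.13), complete the 8. Perlecan, laminin, nidogen and collagen IV are components of 1 structure, the basement membrane. The genes named for it were picked from the 50 tested because their groups did not overlap. They therefore do not describe that structure as a whole. Hspg2, Lamb2 and Col4a5 were each under the background on 1 XmO array. Neurocan (Ncan), a brain proteoglycan, was at 1285, 1808 and 1203 against 1742, 2278 and 2129 (log2 difference -0.53, SE 0.20) and overlapped. Col1a2 and fibronectin (Fn1) were higher in estimate, at 0.19 and 0.25.

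The median of the matrix list was -0.015 without XX_Paf 2, with 21 higher and 29 lower. That array had the highest Hspg2 value and also stood apart in skeletal muscle markers, whose summed intensity was 7876 there and 3169 to 4377 on the other 5 arrays. Skeletal actin (Acta1) was at 574, 217 and 215 against 324, 2448 and 307, high on XX_Paf 2 alone. Of 15 muscle markers tested, 6 were higher and 9 lower, and 0 did not overlap. The part of this tissue in the matrix result was not tested.

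**Figure D4:**
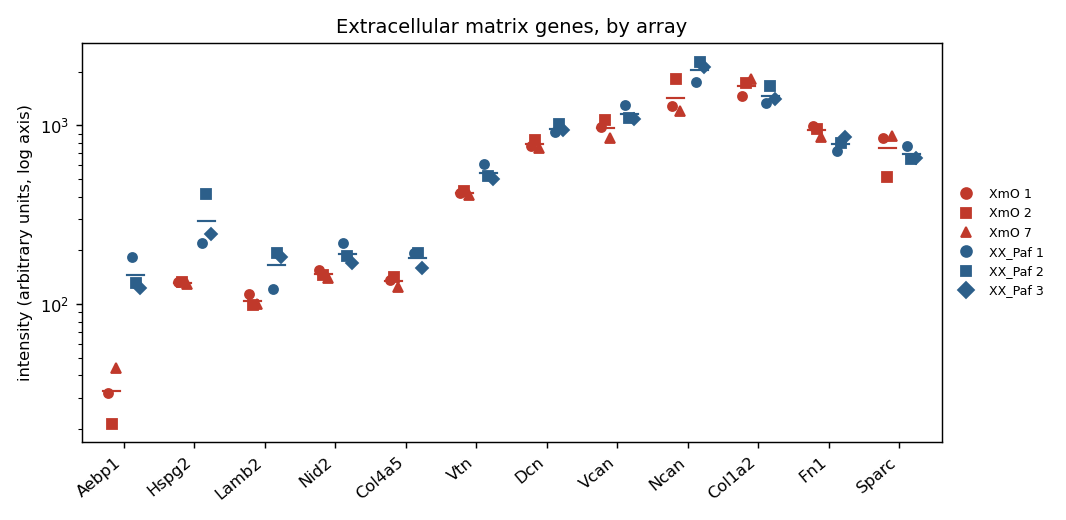
Intensity (vertical axis, arbitrary units, log axis) of 12 extracellular matrix genes on each array, with XmO in red, XX_Paf in blue, 1 symbol per replicate and the group mean as a line. Aebp1 to Vcan separate the groups with XmO lower, most widely for Aebp1 and Hspg2, while Ncan and the genes to its right overlap.

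The list of plasma protein genes was chosen after Alb and Serpina1b were seen to be low. Of 60 liver-secreted and liver-enriched genes, 51 were measured and 24 tested, 8 higher and 16 lower, and 9 were lower without overlap (37.5%, background 6.97%) and 2 higher. Alb and Serpina1b, which prompted the list, are among the 9, and members could pass the filter through high XX_Paf values. The share is therefore no independent evidence of a difference. Albumin (Alb) was at 32.1, 98.0 and 112 in XmO and 1279.5, 555 and 245 in XX_Paf (log2 difference -2.98, SE 0.70). Alpha-1 antitrypsin genes were at 16.7, 76.0 and 29.3 against 355, 227 and 152 (Serpina1b), 69.6, 93.6 and 120.3 against 505, 297 and 210.4 (Serpina1e) and 255, 183 and 278 against 522, 456 and 358 (Serpina1c). These are near-identical copies that 1 probe set can read together, so they are uncertain as separate genes. Kininogen 1 (Kng1) was at 56.4, 112 and 138 against 339.8, 250.4 and 183 (log2 difference -1.39, SE 0.41), plasminogen (Plg) at 168, 152 and 148 against 366, 299 and 212 (log2 difference -0.87, SE 0.27) and apolipoprotein C1 (Apoc1) at 89.1, 112 and 89.9 against 354, 146 and 129 (log2 difference -0.97, SE 0.36).

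All 7 were highest on XX_Paf 1 and lowest, within the XX_Paf group, on XX_Paf 3. For Alb, Serpina1b, Serpina1e, Kng1 and Apoc1 some XmO values were under the background. The summed intensity of the list was 5421 to 7698 in XmO and 7418 to 10973 in XX_Paf, which overlap. Its order, with XX_Paf 1 highest, was that of the single genes. Alpha-fetoprotein (Afp), a defining gene of fetal liver, was near the background on all arrays, at 110.2, 90.8 and 113 against 41.6, 78.5 and 91.8, and higher in estimate. The median over the 24 genes was -0.14, and between -0.29 (without XmO 7) and -0.12 when 1 array was left out. None of them passed (adjusted p of 0.33 or more by limma). Whether plasma or liver RNA had a part in these values was not tested.

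**Figure D5:**
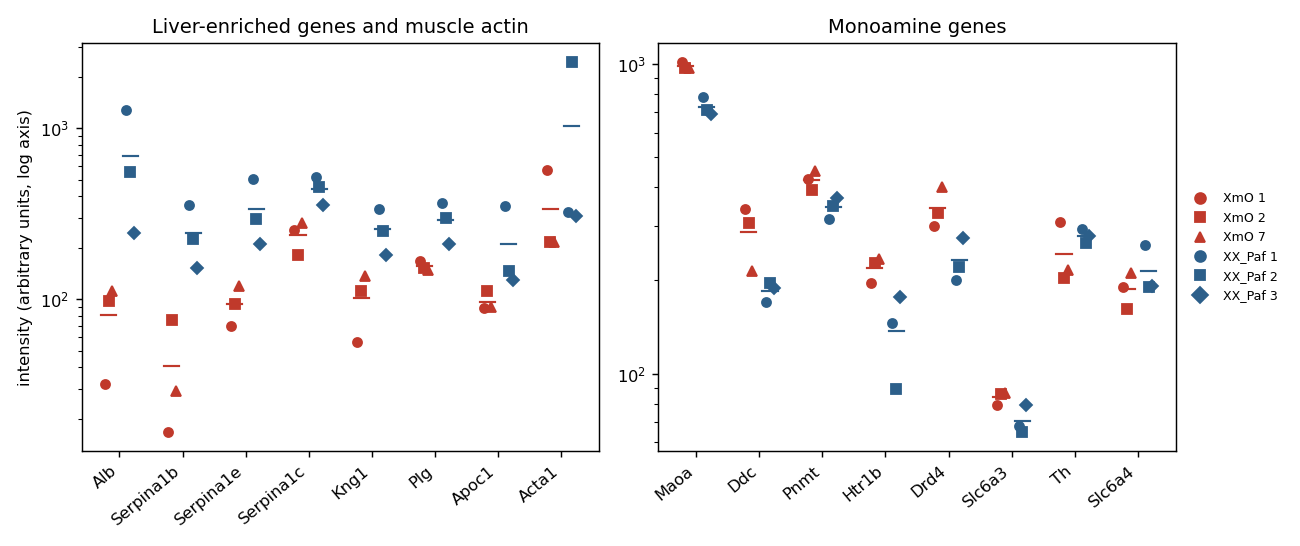
Intensity (vertical axes, arbitrary units, log axes) of plasma protein genes and skeletal actin (left) and monoamine genes (right) on each array, with XmO in red, XX_Paf in blue, 1 symbol per replicate and the group mean as a line. Alb to Apoc1 are highest on XX_Paf 1 and Acta1 on XX_Paf 2, and Maoa to Slc6a3 lie above all XX_Paf arrays in XmO while Th and Slc6a4 overlap.

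The autosomal imprinted genes showed no shared direction. Imprinted genes are read mainly from 1 parental copy in at least some tissues, and the arrays do not tell the copies apart. Both groups have the same autosomal cross. Paternally expressed ones were 7 higher and 8 lower of 15 (median -0.0002, and -0.12 without XX_Paf 2), and maternally expressed ones 12 higher and 7 lower of 19 (median 0.067, and 0.0010 without XX_Paf 2). The paternally expressed Mest, at 227, 276 and 211 in XmO and 352, 336 and 338 in XX_Paf (log2 difference -0.53, SE 0.21), and Mkrn3, at 306, 263 and 355 against 486, 414 and 438 (log2 difference -0.54, SE 0.18), were lower without overlap. So was Usp29 (log2 difference -0.54, SE 0.29), with an XmO value under the background. Neuronatin (Nnat), among the brightest genes of the newborn brain, was higher, at 30110.3, 30033 and 25522 against 24947, 23495 and 23881 (log2 difference 0.24, SE 0.12). The maternally expressed ubiquitin ligase gene Ube3a was at 187, 186 and 149 against 351, 219.5 and 197 (log2 difference -0.51, SE 0.24). Dcn, given above, was the other lower one. The maternally expressed Tssc4 (0.28, SE 0.13) and Nap1l4 (0.25, SE 0.15) were higher without overlap. No gene of either list passed (adjusted p of 0.877 or more by limma).

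Wnt, Notch, Hedgehog, BMP and FGF genes were 39 higher and 35 lower of 74, homeobox, Pax and Pou factors 29 and 23 of 52, and axon guidance genes 24 and 18 of 42. The Sox, proneural and Id factors were 11 higher and 23 lower of 34, with a median of -0.085. Without XmO 1 they were 15 higher and 19 lower, with a median of -0.019, and the median was -0.032 without XmO 7. Sox4, a factor of newborn neurons, was at 5184, 5994 and 5734 in XmO and 3935, 4551 and 4571 in XX_Paf (log2 difference 0.37, SE 0.11). Tbr1, a factor of deep cortical neurons, was at 1459.5, 1407 and 1198 against 1561, 2079 and 1612 (log2 difference -0.36, SE 0.17). Receptor-type phosphatases, to which Ptprv belongs, were 9 higher and 8 lower of 17.

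Markers of the cell types a whole brain holds did not separate the groups as lists. Neuron markers were 9 higher and 9 lower of 18, and radial glia and astrocyte markers 9 and 8 of 17. Summed intensity overlapped between the groups for each of the 10 cell type lists, as for oligodendrocytes (4353 to 4852 in XmO, 4783 to 4909 in XX_Paf) and erythroid cells (17069 to 23862 and 16359 to 23325). The oligodendrocyte list was 5 higher and 3 lower of 8. Without overlap 2 were higher and 3 lower (background 6.96% and 6.97%), so genes stood apart more often than the background on both sides. The median of the list was 0.068 (-0.10 to 0.18 when 1 array was left out), so the list had no shared direction. Within it, myelin basic protein (Mbp), at 388, 453 and 399 in XmO and 488, 458 and 518 in XX_Paf, and Cldn11, at 208, 189 and 239 against 252, 293 and 376, were lower without overlap, and Pdgfra, a marker of their precursors, was higher, at 1539.5, 1881 and 1824 against 1225, 1368 and 1426 (log2 difference 0.38, SE 0.19). Prolactin (Prl), a pituitary hormone, was at 87.9, 36.1 and 47.9 against 126, 173 and 171 (log2 difference -1.54, SE 0.39), with 2 XmO values under the background, while 7 of 9 pituitary markers had higher estimates.

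Ptprv was the other probe set called between the crosses. In the Paf cross it was higher in XmO, as given above, and in the In(X) cross it was lower in XpO, at 17.9 and 30.3 against 208 and 244 in XX_InX. The difference of the effects was 5.28 (SE 0.72, limma's adjusted p = 0.0313), though its size rests on XX_Paf and XpO values under the background. That call was lost without XX_Paf 2, XmO 2 or XmO 7.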

How the data were processed

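RNA of newborn whole brain was measured on 10 arrays. The values as deposited are linear intensity values, a single one for each probe set on an array. What the authors did to make it, such as the probe summary, is not given in the sources used here, and neither detection calls nor scan dates were used, so batches were not examined. Every array had the same trimmed mean (500.3), and no further normalization was applied. Of 12488 probe sets, 66 controls were left out. The platform table gave 1 symbol for 10833 of the other 12422, several for 396 and none for 1193, and 10817 were placed on a chromosome through a RefSeq gene table (GRCm38.p6).

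Intensities under the 10th percentile (15) were raised to it, log2 values were taken, and the 8695 probe sets with a mean at or above the 30th percentile were tested with limma 3.58.1 in R 4.3.3 (lmFit, eBayes with an intensity trend, 4 group means, 6 residual degrees of freedom, two-sided). The 4 arrays of the other cross share the estimate of the spread. Where a group lay under the brightest Y-linked probe set on every array, a bound was computed from the higher of that probe set and the value itself. On simulated data the steps from the fit onward recovered 74% of changes of log2 1 and 93% of log2 2 in XmO against XX_Paf (8695 probe sets, 100 changed at each size). The noise there was normal at the fitted spread. So many changes ease the adjusted threshold, whereas 2 probe sets were called in the data. The recovered shares therefore check the steps and cannot be read as the share of real changes found here.

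Genes were named by a rule: called probe sets, filled in each direction to 12 by smallest p among those with separate groups, all measured X inactivation, escape and Hccs-neighbour genes, and up to 4 members of every other list. Further list members without overlap, and some that overlap, were named after their values were seen, as was the liver list. The members and all lists were chosen with earlier results of these data known. Alternatives were the filter, floor, pseudocount, trend, quantile normalization, the 6 arrays alone, averaged probe sets, each array left out and the replicate number as a block. Replicate numbers 1 and 2 occur in both groups, but same-numbered arrays did not deviate together (r = -0.012 and -0.042 across probe sets), so they were not treated as pairs. Precision is limited by the number of arrays.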

Additional observations from a re-analysis of the deposited data

Results flagged for a closer look

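The effect of losing an X differed between the crosses for Hccs, by -1.95 on the log2 scale (limma's adjusted p = 0.0219 for the difference). The 3 XX_Paf arrays were at 1001 to 1363, and every other array of the series was at 316 to 441. It differed for Ptprv as well, by 5.28 (adjusted p = 0.0313 by limma), with XmO above XX_Paf on 3 of 3 arrays and XpO below XX_InX on 2 of 2. Since XX_Paf and XpO were under the background for Ptprv, the size of that difference is not a measured one.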

How the results depend on the processing

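Xist was called and lower under every alternative run, between -7.36 and -7.10 when 1 array was left out. Hccs kept its call except with the replicate number as a block, which leaves 1 residual degree of freedom (-1.60, limma's adjusted p = 0.519). The count of 2 called probe sets became 4 without the filter and 1 with the replicate block, and 2 to 4 when 1 array was left out. The 2 calls for the difference between crosses became 5 without the filter, 0 without the intensity trend, 0 with the replicate block and 1 with the stricter filter, and ranged from 0 to 3 when 1 array was left out. The Hccs call there was lost without the filter as well. The cause of these losses was not tested. The median of the escape genes moved from -0.36 to -0.28 with averaged probe sets.

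Among genes with no call, signs turned for Eif4e with the replicate block (0.041, from a negative estimate), and when 1 array was left out for Ctps2 (-0.12 to 0.17), Txlng (-0.23 to 0.11), Rbbp7 (-0.051 to 0.066), Ckm (-1.22 to 0.21) and Col3a1 (-0.42 to 0.052). Each of the other single values and list medians was compared with its main value under each alternative run. Of these comparisons, 3510 kept sign and side of the threshold or moved by less than the spread between arrays. Another 69 moved further, 11 weakened and 3 strengthened, and in 7 the sign of an estimate turned. For a gene with no call, staying uncalled with the same sign was enough to count as kept, which is a weak requirement. The median changed sign when 1 array was left out for 23 of the 50 lists with 5 or more members. With 3 arrays a group, the median SE of 0.19 limits what could be called, and values under the Y-linked background carry no order.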
